A study of Mus musculus with 163 samples.

Results

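Growth of the mouse oocyte in the ovary is accompanied by a strong gain of a limited set of transcripts, and the levels of these transcripts were followed here in oocytes grown in culture. The 216 strong risers, of 21950 genes in the table, were chosen on oocytes grown in vivo. They had pooled levels at least 4-fold higher in in vivo fully grown oocytes (FGOs) than in in vivo growing oocytes (GROs), and at least 10 counts per 1000000 reads (CPM) in in vivo FGOs. Pooled CPM is the summed count of all oocytes of a group per 1000000 of their summed reads. Both thresholds were passed by 228 genes, of which 9 genes of the Slc families and 3 further genes were left out. The rule used only the in vivo oocytes, so the in vivo levels are given as a description, and the cultured oocytes supply the measurements.

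The 163 single oocytes fell into 7 groups. Of the GROs, 23 were iPSC-derived, 24 were gonad-derived and 24 came from mice. Of the FGOs, 24 were iPSC-derived, 24 were gonad-derived, 24 were grown in culture out of follicles taken 6 days post partum (6 dpp) and 20 came from mice. iPSC-derived oocytes descend from 1 female induced pluripotent stem cell line, BVSC-iPSC, which carries the transgenic reporters Blimp1-Venus and Stella-ECFP and had been reprogrammed from fibroblasts of an adult tail tip. They went through in vitro production of primordial germ cell-like cells, then differentiation in reconstituted ovaries with gonadal somatic cells of Swiss Webster embryos at E12.5, then in vitro growth. Gonad-derived oocytes began as germ cells of E12.5 embryonic gonads and went through in vitro differentiation and growth. The 6 dpp oocytes went through in vitro growth only. Strain and age of the mice behind the in vivo oocytes are not given in the sources used here. In every group the oocyte was freed of follicular cells and of its zona pellucida and then lysed.

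The mammalian oocyte grows for weeks inside the follicle while it accumulates the RNA and protein store of the early embryo. During this time it is transcriptionally active, coupled to granulosa cells by gap junctions, and it falls silent when fully grown. Transcription factors such as Nobox, Figla and Lhx8 drive much of the growth programme, Nobox through an element with the core TAATTG and Figla through E-boxes of the form CANNTG.

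Depth per oocyte ran from 2.17 to 13.7 M reads (M stands for 1000000), with a median of 6.93 M. Group totals lay between 145 and 166 M, so that 3 reads of a group are worth at most 0.0207 CPM. All 12 oocyte markers examined were above 1 CPM in all 7 groups. Their pooled sum was 68909, 62797 and 70854 CPM in iPSC-derived, gonad-derived and in vivo GROs, and 29611, 34308 and 33214 CPM in iPSC-derived, gonad-derived and 6 dpp FGOs against 48799 CPM in in vivo FGOs, and its part in the members' levels was not tested. By gene, 9, 11 and 11 of the 12 were lower in iPSC-derived, gonad-derived and 6 dpp FGOs than in in vivo FGOs, with Oosp1 as the exception in all 3, and with Npm2 and Dppa3 in iPSC-derived FGOs. No animal, embryo or culture is named for an oocyte, so each group is 1 sample, no test or p-value is given, and differences between sources and differences between single cultures or animals cannot be told apart. Confidence intervals are 95%. Those of CPM values cover counting error only, and those of shares of members treat the genes as independent draws, which they are not. In vivo FGO 7 stood apart from its group, with 101 of 216 members past the midpoint of the rise (the mean of both in vivo levels on the log2 scale), as did in vivo FGOs 22 and 5 to a lesser degree, with 185 and 189. In vivo FGO 19 had 210 past the midpoint and the highest sum of granulosa markers of its group, 413 CPM, and was set aside with the other 3 where a result is given without these 4 oocytes.

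Members differed in culture, and the promoters of 4 members that show the range are printed for orientation. Lmo3, a LIM-domain cofactor of transcription factors, had the steepest rise in vivo. Nrcam, a neuronal cell adhesion molecule of the immunoglobulin superfamily, was above the range of in vivo GROs in most gonad-derived GROs and in 12 of 23 iPSC-derived ones. Mbd3l2, a relative of the methyl-CpG-binding protein Mbd3, reached the in vivo level and lay at the 2-fold limit in gonad-derived GROs, with 61.2 CPM against 30.4 CPM in vivo. Once 0.5 CPM is added to both, their log2 ratio of 0.9975 is just under the limit. Ccdc42, a coiled-coil protein known from the sperm tail, was at the GRO level in all cultured FGOs. The sequences are RefSeq promoters of GRCm38.p6 from 250 bases before to 50 bases after the start, written 5′ to 3′ on the strand of the gene, with E-boxes and the NOBOX element in capitals on either strand. They are Lmo3 at chr6:138581919-138582218 (minus strand), Nrcam at chr12:44328635-44328934 (plus), Mbd3l2 at chr9:18430365-18430664 (plus) and Ccdc42 at chr11:68586787-68587086 (plus).
Lmo3: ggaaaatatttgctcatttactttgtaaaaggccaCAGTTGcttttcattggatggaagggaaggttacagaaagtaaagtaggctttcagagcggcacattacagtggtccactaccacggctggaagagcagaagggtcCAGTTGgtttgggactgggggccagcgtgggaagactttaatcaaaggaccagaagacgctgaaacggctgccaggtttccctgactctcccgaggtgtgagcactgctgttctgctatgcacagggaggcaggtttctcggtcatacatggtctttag
Nrcam: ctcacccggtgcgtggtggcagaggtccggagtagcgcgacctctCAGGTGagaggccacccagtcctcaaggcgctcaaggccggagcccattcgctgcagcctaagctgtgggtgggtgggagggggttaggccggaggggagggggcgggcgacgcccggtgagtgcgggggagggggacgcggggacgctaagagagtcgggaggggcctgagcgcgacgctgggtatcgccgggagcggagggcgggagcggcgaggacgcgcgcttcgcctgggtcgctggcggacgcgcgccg
Mbd3l2: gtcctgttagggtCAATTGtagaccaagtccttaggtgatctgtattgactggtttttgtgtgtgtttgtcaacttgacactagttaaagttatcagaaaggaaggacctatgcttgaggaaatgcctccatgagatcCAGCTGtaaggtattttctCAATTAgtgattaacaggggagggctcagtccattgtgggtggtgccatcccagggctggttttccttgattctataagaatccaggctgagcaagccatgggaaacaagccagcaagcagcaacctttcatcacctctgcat
Ccdc42: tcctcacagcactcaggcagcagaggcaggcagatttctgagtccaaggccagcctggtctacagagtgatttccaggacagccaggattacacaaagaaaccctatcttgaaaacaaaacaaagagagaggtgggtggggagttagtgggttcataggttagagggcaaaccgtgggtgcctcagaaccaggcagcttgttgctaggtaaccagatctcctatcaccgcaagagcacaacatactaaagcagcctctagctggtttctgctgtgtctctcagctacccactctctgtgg
The Lmo3 window holds 2 E-boxes and 7 CpG dinucleotides. The Nrcam window is rich in CpG, with 37, and holds 1 E-box. The Mbd3l2 window holds 2 E-boxes, 1 NOBOX element (as its reverse complement CAATTA) and 0 CpG. The Ccdc42 window holds no match to either motif.

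Promoters were matched for 165 of the 216 members. An E-box, CANNTG, which reads as the same pattern on both strands, was found in 74.5% of them, against 72.1% of all 27025 gene promoters. The NOBOX element was found in 10.3%, against 8.15% of all promoters, and a TATA box (TATAAA on either strand) in 10.3%, against 14.2%. Members for which gonad-derived GROs exceeded in vivo GROs by at least 2-fold had an E-box in 86.6% of 82 windows, and the other members in 62.7% of 83. For the NOBOX element the order was the reverse, 7.32% and 13.3%. Of 23 windows of members that failed to rise in iPSC-derived FGOs, as defined further on, 87.0% held an E-box, and of 116 windows of members with a complete rise, 72.4%. The E-box variant CAATTG shares the letters AATTG with the NOBOX element. A letter match is a description and not a site.

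In vivo the median rise of the members was 2.58 on the log2 scale of CPM + 0.5, on which all log2 ratios are given, and the range was 2.00 to 5.11. The same 4-fold increase was found for 3.07% of 13148 genes, since this contrast chose the members. Just inside the ratio threshold lay Pou2f3, Gnrh1 and Awat2, with log2 ratios of 2.00, 2.02 and 2.03, and just outside it lay Kif5c, Tlr3 and Kcnmb2, each with 1.99. Just inside the level threshold lay Dzip1, Peli2 and Arid3c with 10.1, 10.3 and 10.3 CPM, and just outside it Chst4, Gm7550 and Rbm47 with 9.95, 9.91 and 9.86 CPM. In 86 members (39.8%) every in vivo FGO was above every in vivo GRO, beside 2.26% of all genes tested. All 216 members passed the filter on low values, more than 1 CPM in at least 3 oocytes, in every comparison. The 10 steepest risers had log2 ratios of 4.25 to 5.11 and were Lmo3, Csmd3, Htr5a, Ak5, Rgn, Fgf10, Selp, Gypc, Etl4 and Lyn. Per kilobase of exon, the most abundant members in in vivo FGOs were Oog3, an oocyte gene of a multicopy family, at 784 CPM per kb, the co-chaperone gene Dnajb4 at 278 CPM per kb and Gnrh1, the precursor of gonadotropin-releasing hormone, at 179 CPM per kb.

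The first question was whether members were already raised in cultured GROs. A member was called early where its pooled level in cultured GROs was at least 2-fold that of in vivo GROs on the log2 scale of CPM + 0.5. In iPSC-derived GROs 65 members were early (30.1%, exact binomial interval 24.1 to 36.7), and the same was true of 5.49% of 13422 genes tested. In gonad-derived GROs 109 members were early (50.5%, 43.6 to 57.3), beside 4.18% of genes tested. Of all 216 members, 56 were early in both (25.9%), 53 in gonad-derived GROs only (24.5%) and 9 in iPSC-derived GROs only (4.17%). The other 98 were early in neither. With the member list kept and each oocyte left out in turn, a check added after the data were seen, 9 of the 65 and 10 of the 109 lost their early call in at least 1 case. Low in vivo GRO values were part of the rule, which favours early calls of members, and only comparisons among cultured oocytes share no library with it.

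Expressed as a share of the rise in vivo on the log2 scale (0% at the in vivo GRO level and 100% at the in vivo FGO level), the median member stood at 25.2% in iPSC-derived GROs (quartiles 7.39 to 40.5%) and at 36.5% in gonad-derived GROs (18.0 to 53.5%). The 407 moderate risers, genes with a rise in vivo of 2-fold to under 4-fold and at least 10 CPM in in vivo FGOs, had medians of 21.4% and 37.4%. Of these 407, 41 were early in both sources (10.1%), 39 in gonad-derived GROs only (9.58%) and 17 in iPSC-derived GROs only (4.18%). Past the midpoint of the rise were 34 members in iPSC-derived and 63 in gonad-derived GROs, and within 2-fold of the in vivo FGO level were 18 and 39. These are 15.7% and 29.2%, and 8.33% and 18.1%, of the members, beside 28.0% and 36.9%, and 47.2% and 63.1%, of the moderate risers, whose rise is smaller by definition. Diameters of the oocytes were not used here, and the part of a difference in size between cultured and in vivo GROs was not tested.

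Among the members with the largest ratios in cultured GROs, Ptpre, a receptor-type tyrosine phosphatase, was the most abundant. In in vivo GROs it lay between 15.4 and 111 CPM per oocyte with a median of 47.4, and in in vivo FGOs between 118 and 342 with a median of 274. In iPSC-derived GROs it lay between 92.3 and 352 with a median of 235, and in gonad-derived GROs between 157 and 437 with a median of 248. Of the cultured GROs, 22 of 23 iPSC-derived and 24 of 24 gonad-derived oocytes were above every in vivo GRO. Ptpre was the only member with all gonad-derived GROs above them (0.463%), beside 0.0969% of genes tested. The pooled log2 ratios to in vivo GROs were 2.14 and 2.25, and the step from GRO to FGO within each source was 0.34 and 0.01, so that cultured GROs and cultured FGOs had similar levels.

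Popdc2, which codes for a cAMP-binding membrane protein, and St6galnac3, a sialyltransferase gene, were likewise early in both sources. Popdc2 ranged from 1.76 to 16.9 CPM with a median of 7.15 in in vivo GROs, from 13.3 to 90.4 with a median of 42.3 in iPSC-derived GROs and from 13.4 to 108 with a median of 41.8 in gonad-derived GROs. St6galnac3 ranged from 0 to 9.26 CPM with a median of 2.71 in in vivo GROs. In iPSC-derived GROs it ranged from 12.0 to 61.3 with a median of 26.0, every oocyte above all in vivo GROs. It was the only such member (0.463%), beside 0.961% of genes tested. In gonad-derived GROs it had a median of 12.1 CPM and a range of 3.00 to 45.1. The predicted gene Gm7073 had pooled levels of 18.5 and 19.7 CPM in iPSC-derived and gonad-derived GROs, against 2.35 in in vivo GROs and 15.9 in in vivo FGOs. Epha3, a receptor of the ephrin guidance cues, had 10.5 and 7.88 CPM, against 1.71 and 28.1.

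Nrcam was raised early and then did not gain further. In in vivo GROs it lay between 0.495 and 14.9 CPM with a median of 3.26, in iPSC-derived GROs between 1.38 and 71.6 with a median of 15.6, and in gonad-derived GROs between 4.09 and 100 with a median of 50.4. Above every in vivo GRO were 12 of 23 iPSC-derived and 21 of 24 gonad-derived GROs. The pooled level of 48.2 CPM in gonad-derived GROs (47.2 to 49.3) was above that of in vivo FGOs, 36.6 CPM (35.6 to 37.6). In gonad-derived FGOs the pooled level was 25.5 CPM, in iPSC-derived FGOs 20.2 CPM and in 6 dpp FGOs 12.6 CPM, the last of these short of the in vivo level by 1.51 on the log2 scale.

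Other members were raised early mainly in gonad-derived GROs. Mro, the maestro gene, had a median of 40.0 CPM in gonad-derived GROs (11.7 to 99.2), 10.0 in iPSC-derived GROs (0.715 to 27.5) and 4.08 in in vivo GROs (0.317 to 17.8). Gm16548, a predicted gene, had a median of 21.3 CPM in gonad-derived GROs (0.146 to 30.6), 1.5 in iPSC-derived GROs (0 to 4.89) and 0.795 in in vivo GROs (0 to 2.03). Gonad-derived GROs were split for this gene, with oocytes 4, 6, 16, 19 and 20 at 0.146 to 1.57 CPM, within the in vivo GRO range. Gm16548 overlaps Selp, the gene of the adhesion receptor P-selectin and itself a member. The use of strand in counting is not stated, so reads of these genes cannot be told apart. Selp had pooled levels of 12.7 CPM in gonad-derived GROs, 4.48 in iPSC-derived and 2.35 in in vivo GROs. The adenylate kinase gene Ak5 had 7.35 CPM in gonad-derived, 2.43 in iPSC-derived and 0.630 in in vivo GROs.

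Lmo3 was 1 of the 9 members early in iPSC-derived GROs and not in gonad-derived ones. Its range in iPSC-derived GROs was 0.703 to 8.70 CPM with a median of 3.78, and 19 of 23 oocytes were above every in vivo GRO. In gonad-derived GROs it ran from 0 to 0.971 CPM with a median of 0.165, and in in vivo GROs from 0 to 2.26 with a median of 0.146. In FGOs its pooled level was 48.7 CPM for the iPSC-derived, 26.2 for the gonad-derived, 52.4 for the 6 dpp and 26.8 for the in vivo oocytes, so that all cultured sources were close to or above the in vivo level. The 8 other members early in iPSC-derived GROs alone were Trib2, Raet1d, Prdm1, Gm19583, Dync1i1, Fetub, Prkar2b and Gtf2ird1, of which Trib2 and Gm19583 fell short of the limit without iPSC-derived GRO 6 or 19 and without iPSC-derived GRO 5 or 15, respectively. Prdm1 codes for Blimp1, whose regulatory sequence drives 1 of the reporters of the iPSC line. Its pooled level was 26.6 CPM in iPSC-derived, 13.3 in gonad-derived and 9.50 in in vivo GROs, and 102, 56.9 and 56.5 CPM in the corresponding FGOs.

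**Figure D1:**
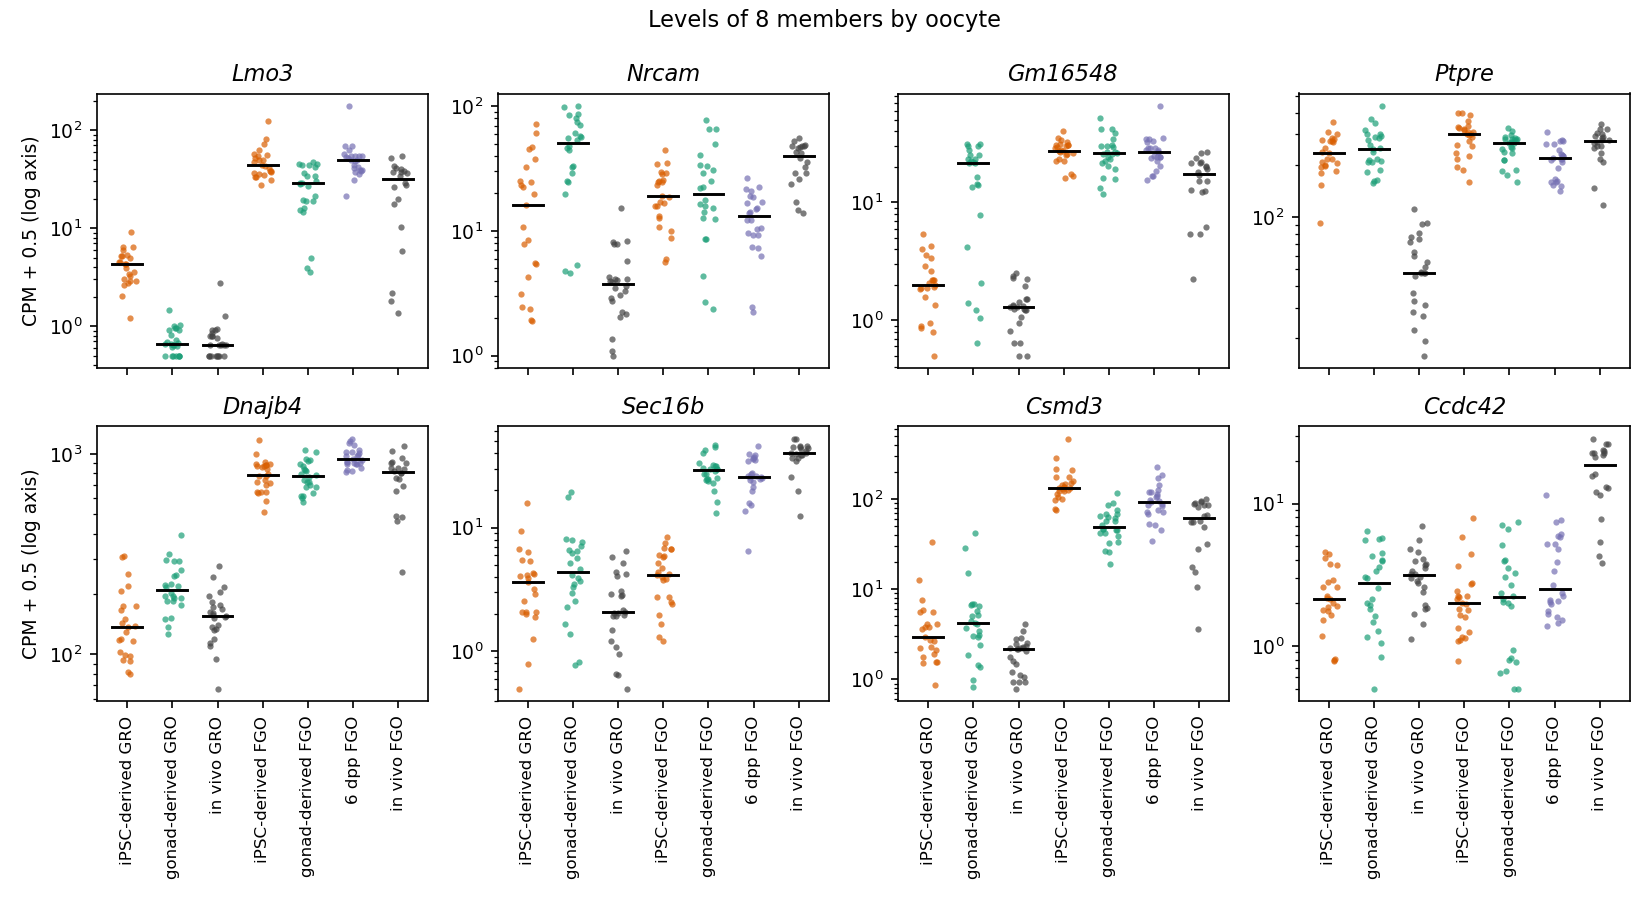
Levels of 8 members in single oocytes (points, CPM + 0.5 on a log axis) in the 7 groups. Ptpre is high in both kinds of cultured GROs, and Nrcam in 21 of 24 gonad-derived and 12 of 23 iPSC-derived GROs. Gm16548 is high in most gonad-derived GROs. Lmo3 is above the in vivo GRO range in most iPSC-derived GROs, at no more than 8.70 CPM. Sec16b is low in iPSC-derived FGOs and Ccdc42 in all cultured FGOs.

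Oocytes of a group differed widely at the GRO stage. For each oocyte the members past the midpoint of their rise in vivo were counted. The count ran from 2 to 139 of 216 in iPSC-derived GROs with a median of 44 (20.4%), and from 11 to 146 in gonad-derived GROs with a median of 77 (35.6%). In in vivo GROs, whose low counts the rule itself brings about, it ran from 0 to 58 with a median of 3 (1.39%). The highest were iPSC-derived GROs 6 and 19 with 139 and 120, gonad-derived GROs 23 and 24 with 146 and 137, and in vivo GRO 18 with 58. The groups overlapped, and early calls were not made by all oocytes of a group together. In iPSC-derived GROs 74 members and in gonad-derived GROs 102 members were past the midpoint in 25 to 75% of oocytes.

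In the cultured groups the spread was narrower in FGOs than in GROs, with an SD of the share past the midpoint of 15.3 and 17.0 percentage points in iPSC-derived and gonad-derived GROs and of 4.45, 6.79 and 5.22 in iPSC-derived, gonad-derived and 6 dpp FGOs. In vivo this share was the reverse, with 5.56 in GROs and 12.1 in FGOs, largely through FGO 7 at 46.8%. The rule itself keeps the share low in in vivo GROs and high in in vivo FGOs. For the median share of the rise per oocyte, the SD was lower in FGOs in vivo too, 15.5 against 19.7 percentage points in GROs. The count of members past the midpoint ran from 141 to 179 in iPSC-derived FGOs with a median of 160 (74.1%), from 133 to 208 in gonad-derived FGOs with a median of 187 (86.6%) and from 148 to 206 in 6 dpp FGOs with a median of 192 (88.9%). The highest iPSC-derived FGO was thus below the medians of both other cultured groups. In vivo FGOs ran from 101 to 216 with a median of 214 (99.1%), as the rule leads to. Summed over all members, the median part of the reads was 0.431%, 0.561% and 0.209% for the iPSC-derived, gonad-derived and in vivo GROs. For iPSC-derived, gonad-derived and 6 dpp FGOs and in vivo FGOs the medians were 1.08%, 1.10%, 1.15% and 1.33%.

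**Figure D2:**
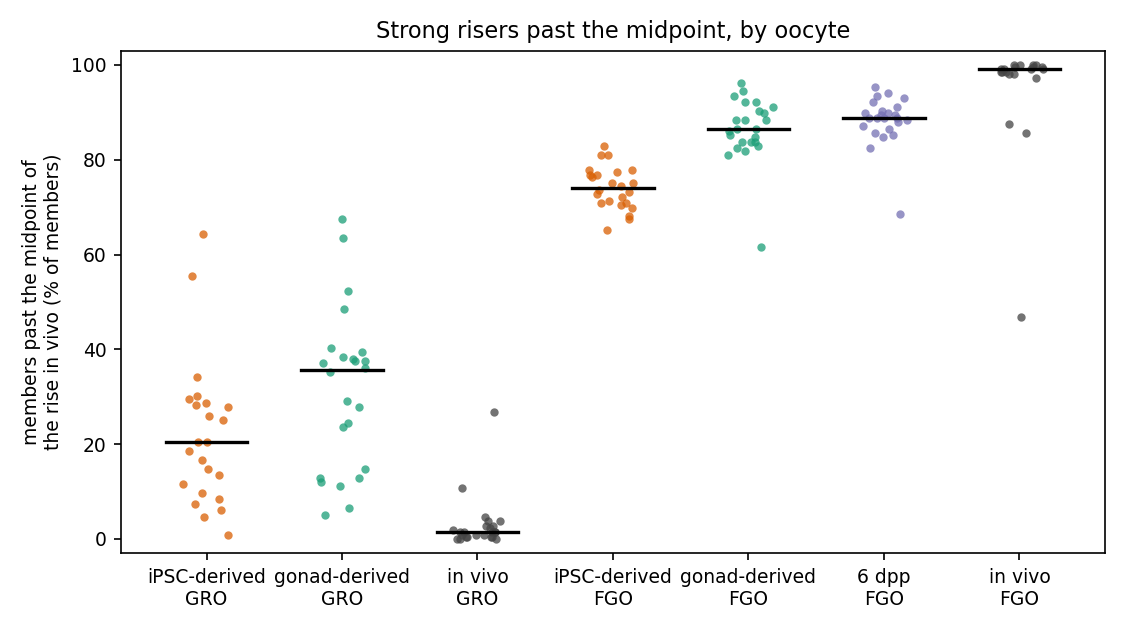
Share of the 216 members past the midpoint of their rise in vivo, in percent, for each oocyte (points) of the 7 groups, with group medians. Cultured GROs spread from 0.926 to 67.6%, iPSC-derived FGOs lie between 65.3 and 82.9%, and in vivo FGO 7 lies at 46.8%.

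The summed level of granulosa markers was higher in FGOs, much of it through Cyp19a1 and, in 6 dpp and in vivo FGOs, Gja1. The sum per oocyte, over 12 of 14 listed genes, had medians of 54.2, 54.2 and 50.5 CPM in iPSC-derived, gonad-derived and in vivo GROs, and of 89.8, 116, 128 and 120 CPM in iPSC-derived, gonad-derived and 6 dpp FGOs and in vivo FGOs, with a highest value of 1630 CPM in 6 dpp FGO 12. Cyp19a1, itself past the rule and left out of it, had pooled levels of 20.1, 19.1 and 8.87 CPM in the 3 groups of GROs and of 61.9, 77.2, 74.7 and 64.1 CPM in the FGOs, in the same order, while Amh was at 1.10 CPM or less in every group. Without Cyp19a1 the medians were 32.9, 33.2 and 42.3 CPM in the GROs and 29.2, 35.5, 55.1 and 57.4 CPM in the FGOs, so that the remaining markers had lower medians in iPSC-derived and gonad-derived FGOs than in the 6 dpp and in vivo ones. Gja1, the connexin 43 gene of granulosa cells and likewise left out of the members, had 0.687, 0.420 and 1.61 CPM in the GROs and 1.91, 8.29, 60.0 and 30.6 CPM in the FGOs, and without both genes the medians were 32.0, 33.1 and 41.1 CPM and 26.3, 32.5, 47.9 and 47.6 CPM. Theca and stroma markers had a pooled sum of 65.4 CPM in 6 dpp FGOs, of which Hsd3b1 made 49.4, against 8.93 CPM or less in the other groups. The median 6 dpp FGO had 14.8 CPM, and oocytes 10 and 12 had 338 and 832. No marker was among the members, and the part of granulosa RNA in their levels was not tested. Several members, among them Mrc1, Plek, Lcp2 and Lyn, are known from blood cells. The leukocyte markers Ptprc, Lyz2 and Adgre1 were at or below 0.0739 CPM in all groups. The endothelial markers Cdh5 and Kdr were at or below 0.0246 and 0.310 CPM, and the hemoglobin gene Hbb-bs at or below 0.0483 CPM. Cd68, however, lay between 2.04 and 5.79 CPM, and Pecam1, a marker of endothelium and leukocytes, between 67.0 and 149 CPM. The part of RNA from blood or endothelial cells in the members' levels was not tested.

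The second question was how far the members rose within each cultured source, a comparison that shares no library with the rule. From iPSC-derived GROs to iPSC-derived FGOs, 60 members were at least 4-fold higher (27.8%), beside 1.13% of 13115 genes tested. From gonad-derived GROs to gonad-derived FGOs, 46 members were at least 4-fold higher (21.3%), beside 0.88% of 13068 genes tested. The median log2 ratio of members was 1.5 and 1.44, while that of all genes tested was -0.11 and -0.05. In each source 207 of 216 members were higher in FGOs and 9 (4.17%) lower, while 56.6% and 53.3% of genes tested were lower in the iPSC-derived and gonad-derived source. Every FGO was above every GRO for 32 members in the iPSC-derived source (14.8%, beside 2.39% of genes tested) and for 20 members in the gonad-derived source (9.26%, beside 1.36%).

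Dnajb4, which codes for a co-chaperone of Hsp70, was early in neither source. It had medians of 136 CPM in iPSC-derived GROs (79.2 to 308), 210 in gonad-derived GROs (125 to 393) and 156 in in vivo GROs (67.03 to 274). In FGOs its medians were 783 CPM for the iPSC-derived (510 to 1167), 774 for the gonad-derived (574 to 1048), 938 for the 6 dpp (811 to 1187) and 812 for the in vivo oocytes (257 to 1093). Cultured GROs and cultured FGOs did not overlap for this gene. Csmd3, which codes for a large membrane protein with complement-control domains, was early in gonad-derived GROs. Its early call in iPSC-derived GROs rested on GRO 19, without which its pooled level was 3.08 CPM, 1.79-fold that of in vivo GROs on the log2(CPM + 0.5) scale and under the limit. It had the largest ratio of all members within the iPSC-derived source, 5.03 on the log2 scale, from 4.26 CPM in GROs to 155 in FGOs.

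Mbd3l2 belongs to a multigene family, so its level is uncertain. It had medians of 39.6 CPM in iPSC-derived GROs (10.9 to 136), 59.0 in gonad-derived GROs (10.0 to 178) and 31.2 in in vivo GROs (1.49 to 71.9), and medians of 243, 225, 301 and 272 CPM in iPSC-derived, gonad-derived and 6 dpp FGOs and in vivo FGOs. Epsti1, an interferon-inducible gene, had pooled levels of 11.8, 17.6 and 16.7 CPM in iPSC-derived, gonad-derived and in vivo GROs, and of 86.3, 97.4, 164 and 155 CPM in iPSC-derived, gonad-derived and 6 dpp FGOs and in vivo FGOs. Gnrh1 had 43.8, 38.0 and 26.7 CPM in the GROs and 131, 83.6, 135 and 110 in the FGOs, in the same order. The Rac exchange factor gene Prex2 and the anthrax toxin receptor gene Antxr2 were likewise within 2-fold of in vivo GROs and within 2-fold of in vivo FGOs.

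Few members were lower in FGOs than in GROs of their source. The 9 members lower in iPSC-derived FGOs than GROs were Cntnap3, BC147527, Itgb4, Rgs19, Dnah5, Frmpd1, Oas1f, Sec14l3 and Pou2f3. The 9 lower in gonad-derived FGOs than GROs were Nrcam, Entpd1, BC147527, Rgs19, Ccdc42, 4930405A21Rik, Crabp2, Oas1f and Olfr878. Oas1f, of a family of antiviral oligoadenylate synthetases with close copies, was early in both sources and then flat, with 59.3 and 56.2 CPM in iPSC-derived GROs and FGOs and 64.5 and 64.0 CPM in gonad-derived ones. Crabp2, a retinoic acid-binding protein gene, had 113 CPM in gonad-derived GROs and 91.6 in gonad-derived FGOs, against 30.7 and 144 in vivo.

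The third question was whether the rise was complete at the end of growth in culture. A member was called complete where the cultured FGOs were no more than 2-fold below in vivo FGOs, failed where they were less than 2-fold above in vivo GROs, and partial otherwise. In iPSC-derived FGOs 154 members were complete (71.3%, 64.8 to 77.2), 34 partial and 28 failed (13.0%, 8.79 to 18.2). In gonad-derived FGOs 194 were complete (89.8%, 85.0 to 93.5), 15 partial and 7 failed (3.24%, 1.31 to 6.56), and in 6 dpp FGOs the 3 counts were also 194, 15 and 7. Without in vivo FGOs 5, 7, 19 and 22 the rule gave 257 members, of which 63.8% were complete in iPSC-derived, 85.2% in gonad-derived and 87.5% in 6 dpp FGOs. Without the oocytes richest in somatic markers (in vivo FGOs 16 and 19 and 6 dpp FGOs 10 and 12) these shares were 71.9% in iPSC-derived, 90.5% in gonad-derived and 90.0% in 6 dpp FGOs.

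These counts are read beside those of all genes. At least 2-fold below in vivo FGOs were 62 members in iPSC-derived FGOs, beside 9.84% of 13582 genes tested, 22 members in gonad-derived FGOs, beside 3.29%, and 22 members in 6 dpp FGOs, beside 2.97%. At least 2-fold above in vivo FGOs were 6 members in iPSC-derived FGOs, 0 in gonad-derived FGOs and 2 in 6 dpp FGOs, beside 4.03%, 2.09% and 1.22% of genes tested. A gene chosen for a high level in in vivo FGOs is more often found below it elsewhere, which the rule itself brings about. The median share of the rise was 81.8% in iPSC-derived FGOs (quartiles 57.5 to 101%), 90.8% in gonad-derived FGOs (78.4 to 102.7%) and 92.3% in 6 dpp FGOs (77.1 to 106%). Moderate risers had medians of 73.2%, 90.3% and 91.3%, so the lower median of iPSC-derived FGOs was found in both sets.

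**Figure D3:**
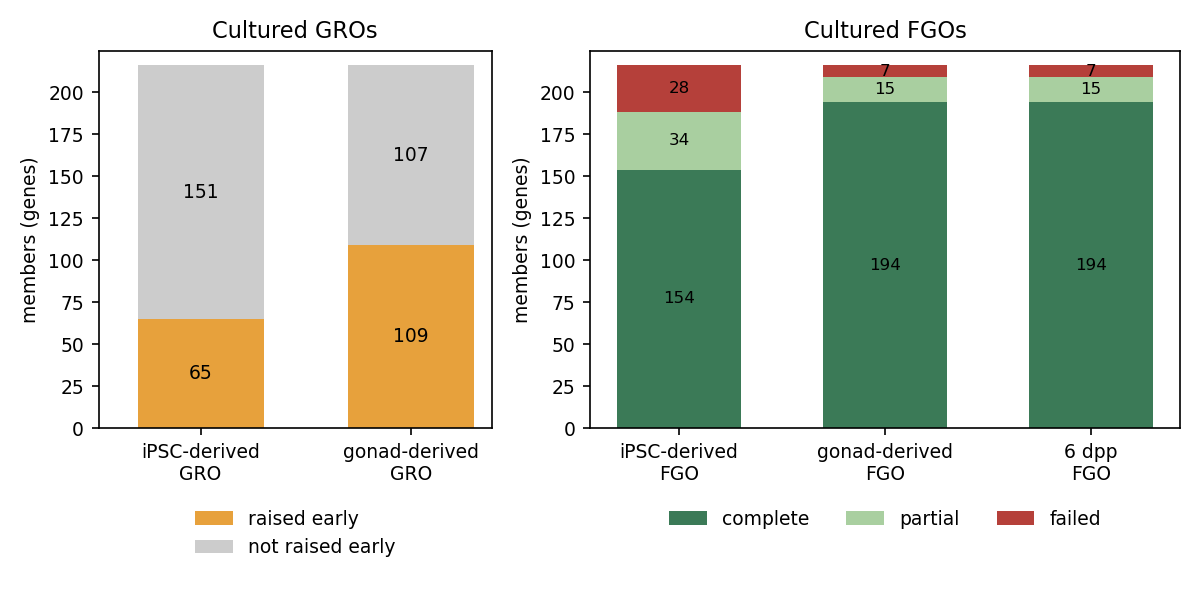
Number of the 216 members in each class (stacked bars, genes), as early or not early in the 2 groups of cultured GROs and as complete, partial or failed in the 3 groups of cultured FGOs. Early members number 65 and 109, and failed members 28, 7 and 7.

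Across the 3 groups of cultured FGOs, 146 members were complete in all (67.6%) and 13 in none (6.02%). Of the moderate risers, whose rise is smaller by definition, 78.9% were complete in all and 1.97% in none. Of the 146, 59 were early in neither source, 46 early in both, 34 early in gonad-derived GROs alone and 7 in iPSC-derived GROs alone. Members early in a source were mostly complete in it, with 57 of 65 in iPSC-derived and 107 of 109 in gonad-derived oocytes. Those not early were complete in 97 of 151 and 87 of 107. The definitions themselves favour this difference. At a 4-fold rise, a level 2-fold above in vivo GROs already meets the limit for a complete rise. Shortfall in 1 group alone was most frequent in iPSC-derived FGOs, with 39 members, against 4 each in gonad-derived and 6 dpp FGOs. Among the 407 moderate risers the counts were 45, 1 and 7, and of all genes tested 6.55%, 0.471% and 0.582% were short in these groups alone, so that the excess of iPSC-derived FGOs was not particular to the members.

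**Figure D4:**
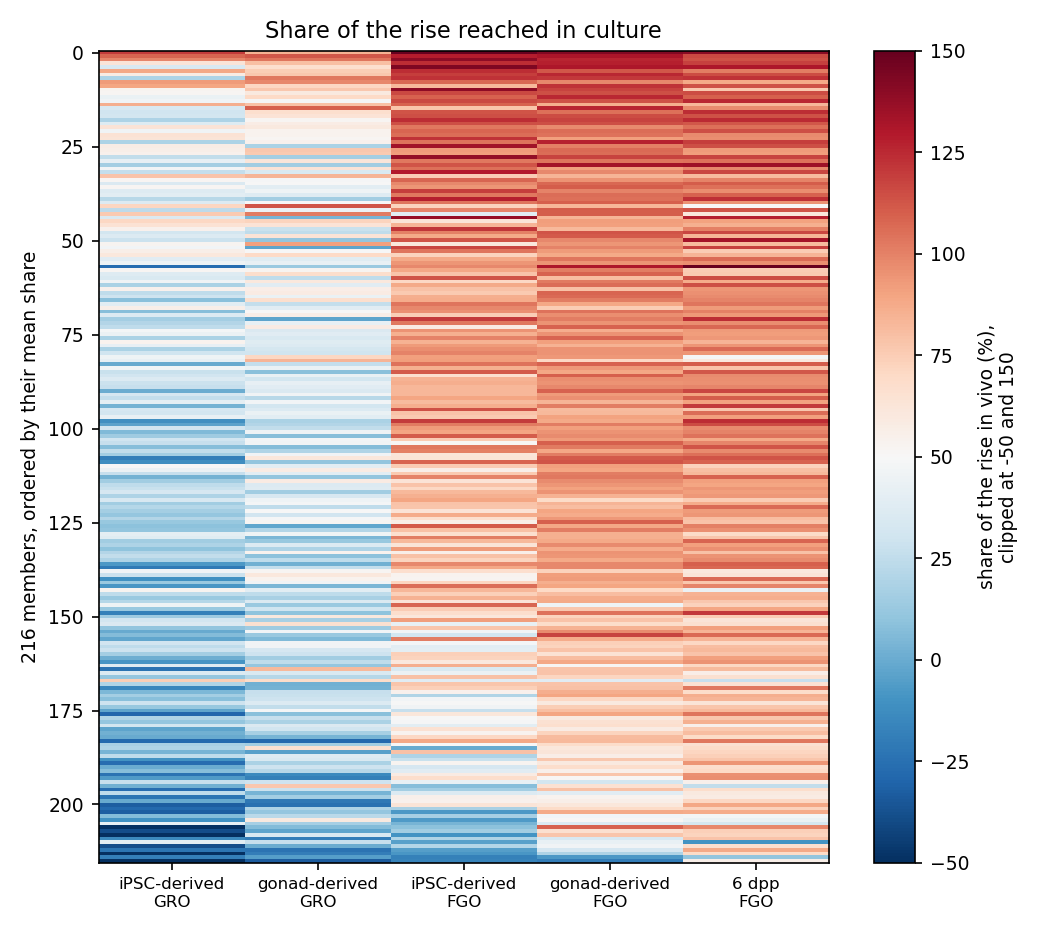
Share of the rise in vivo reached by each of the 216 members (rows, ordered by their mean share) in the 5 cultured groups (columns), in percent on a colour scale clipped at its ends. Shares are mostly under 50% in cultured GROs, where the medians are 25.2 and 36.5%, and the medians of iPSC-derived, gonad-derived and 6 dpp FGOs are 81.8, 90.8 and 92.3%.

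The 3 members that failed in all cultured FGOs were Ccdc42, Rgs19 and Pou2f3. Ccdc42 lay between 3.32 and 28.1 CPM in in vivo FGOs with a median of 18.2, and between 0.619 and 6.50 in in vivo GROs with a median of 2.63. Its medians were 1.49 CPM in iPSC-derived FGOs (0.281 to 7.46), 1.69 in gonad-derived FGOs (0 to 6.92) and 2.02 in 6 dpp FGOs (0.870 to 10.9). Below every in vivo FGO were 21, 18 and 14 of 24 oocytes, in the same order. The pooled level in 6 dpp FGOs, 3.35 CPM (3.07 to 3.65), was the highest of the 3 and that in in vivo FGOs was 16.5 CPM (15.8 to 17.1).

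Rgs19, a regulator of G protein signalling, took another course, since it was early in both sources and lower in cultured FGOs than in cultured GROs. It was partial in iPSC-derived and gonad-derived FGOs once in vivo GRO 18 was left out, at 1.11 on the log2 scale above in vivo GROs in each. Its medians were 21.0 CPM in iPSC-derived GROs (2.29 to 38.9), 16.7 in gonad-derived GROs (2.05 to 48.7) and 5.15 in in vivo GROs (0.495 to 23.3). In FGOs they were 9.74 for the iPSC-derived (3.17 to 22.8), 10.7 for the gonad-derived (2.16 to 28.6), 10.0 for the 6 dpp (2.31 to 18.4) and 31.4 for the in vivo oocytes (20.6 to 49.7). Pou2f3, a POU-domain transcription factor gene at the ratio threshold, had pooled levels of 3.62, 5.93 and 5.65 CPM in iPSC-derived, gonad-derived and 6 dpp FGOs, against 15.1 in in vivo FGOs and 3.40 in in vivo GROs.

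The other 10 members complete in none of the 3 groups were Plek, Cyp4v3, Tuba3b, Alpl, Adcyap1r1, Tnfrsf21, Asb12, Sh3gl2, Itgb4 and 4930405A21Rik. Of these, Adcyap1r1 was complete in gonad-derived FGOs without any 1 of 9 oocytes, gonad-derived FGO 18 among them (log2 ratio -0.97), and Cyp4v3 was complete in 6 dpp FGOs without in vivo FGO 3, 6, 14 or 15 (-0.96 without 15). Tuba3b, an alpha-tubulin gene, had a median of 52.0 CPM in in vivo FGOs (6.75 to 126), 28.2 in 6 dpp FGOs (0 to 57.2), 0.483 in gonad-derived FGOs (0 to 53.6) and 0.345 in iPSC-derived FGOs (0 to 34.8). Cultured oocytes of 1 group were split for this gene, with 6 of 24 gonad-derived FGOs at 18.3 CPM or more and the others at 5.28 or less. In 6 dpp FGOs 19 of 24 were at 5.73 CPM or more and the others at 0.720 or less. Adcyap1r1, the receptor of the neuropeptide PACAP, had pooled levels of 5.46, 8.41 and 7.88 CPM in iPSC-derived, gonad-derived and 6 dpp FGOs, against 17.5 in in vivo FGOs.

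Of the members short in iPSC-derived FGOs alone, Sec16b, which functions at exit sites of the endoplasmic reticulum, stood furthest from its in vivo level. Its medians were 3.65 CPM in iPSC-derived FGOs (0.703 to 7.86), 28.8 in gonad-derived FGOs (12.7 to 46.0), 25.3 in 6 dpp FGOs (6.00 to 45.4) and 39.5 in in vivo FGOs (12.0 to 51.7). All 24 iPSC-derived FGOs were below every gonad-derived and every in vivo FGO. Pooled over oocytes, iPSC-derived FGOs had 3.94 CPM (3.64 to 4.25), close to the 3.50 CPM of iPSC-derived GROs, and gonad-derived FGOs 28.9 CPM (28.1 to 29.7).

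Eps8l3, an Eps8-like adaptor gene, had a median of 12.6 CPM in iPSC-derived FGOs (2.83 to 31.2), 53.4 in gonad-derived FGOs (11.1 to 114) and 79.9 in in vivo FGOs (53.7 to 108). Mrc1, the mannose receptor gene, had a median of 6.60 CPM in iPSC-derived FGOs (0.899 to 13.8), 19.1 in gonad-derived FGOs (5.46 to 34.8) and 39.7 in in vivo FGOs (18.0 to 60.7). Neither gene overlapped between iPSC-derived and in vivo FGOs. Like Sec16b, they are among 11 members (5.09%) with every iPSC-derived FGO below every in vivo FGO. The same was true of 1.95% of genes tested and of 6.88% of moderate risers. The rule asked for high in vivo FGO levels, which favours such calls. BC147527 had pooled levels of 2.00 CPM for the iPSC-derived, 7.04 for the gonad-derived, 8.01 for the 6 dpp and 14.4 for the in vivo FGOs. Mrc1 and BC147527 lay near the limit in gonad-derived FGOs and were no longer complete there without 1 oocyte, for instance gonad-derived FGO 10 (log2 ratios of -1.01 and -1.07).

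Above the in vivo level by at least 2-fold in iPSC-derived FGOs were Csmd3, Selp, Fam162b, Piwil1, Popdc2 and St6galnac3. Csmd3 had a median of 134 CPM in iPSC-derived FGOs (74.5 to 464), 48.4 in gonad-derived FGOs (18.6 to 117), 92.9 in 6 dpp FGOs (33.8 to 224) and 61.1 in in vivo FGOs (3.08 to 98.9). Piwil1, a PIWI protein that binds germline small RNAs, had pooled levels of 49.5, 39.5, 39.8 and 22.8 CPM in the same order of groups. In 6 dpp FGOs the 2 members above were AA536875, with 125 CPM against 54.2 in in vivo FGOs, and Selp, with 114 against 54.5. Several of these calls lie at the limit. Without 6 dpp FGO 3 the log2 ratio of Selp in 6 dpp FGOs was 0.967, and in iPSC-derived FGOs the call was lost without 1 oocyte for Selp, Popdc2 and Fam162b (0.987 without iPSC-derived FGO 14 for the last), which leaves Csmd3, Piwil1 and St6galnac3. In the oocytes themselves these groups overlapped.

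In source comparisons that do not involve the rule's libraries, iPSC-derived oocytes were more often the lower. In GROs 34 members were at least 2-fold lower in iPSC-derived than in gonad-derived oocytes, beside 1.75% of genes tested, and 1 was higher, Lmo3, beside 1.98%. The median log2 ratio was -0.34. In FGOs 27 members were at least 2-fold lower, beside 3.74% of genes tested, and 4 were higher, Csmd3, Epha3, Sh3bgrl and Gm19583, beside 2.19%. The median log2 ratio was -0.22, against -0.08 over all genes tested. Every iPSC-derived FGO was below every gonad-derived FGO for 1 member, Sec16b, beside 0.184% of genes tested.

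The lists of lower members at both stages shared 15 genes, which is 44.1% of the GRO list and 55.6% of the FGO list. Of all genes tested at both stages, 233 were lower in GROs, 502 in FGOs and 126 (0.976%) in both, which is 54.1% and 25.1% of these lists. Of the GRO list, 19 were within 2-fold in FGOs. Entpd1, an ectonucleotidase gene, is on both lists, with 4.76 CPM in iPSC-derived against 34.5 in gonad-derived GROs, and 14.5 and 32.2 CPM in the FGOs, where it is within 2-fold without gonad-derived FGO 17 (log2 ratio -0.98). Gm16548 is on the GRO list only, with 1.67 and 16.6 CPM in GROs and 26.9 and 25.8 CPM in FGOs.

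**Figure D5:**
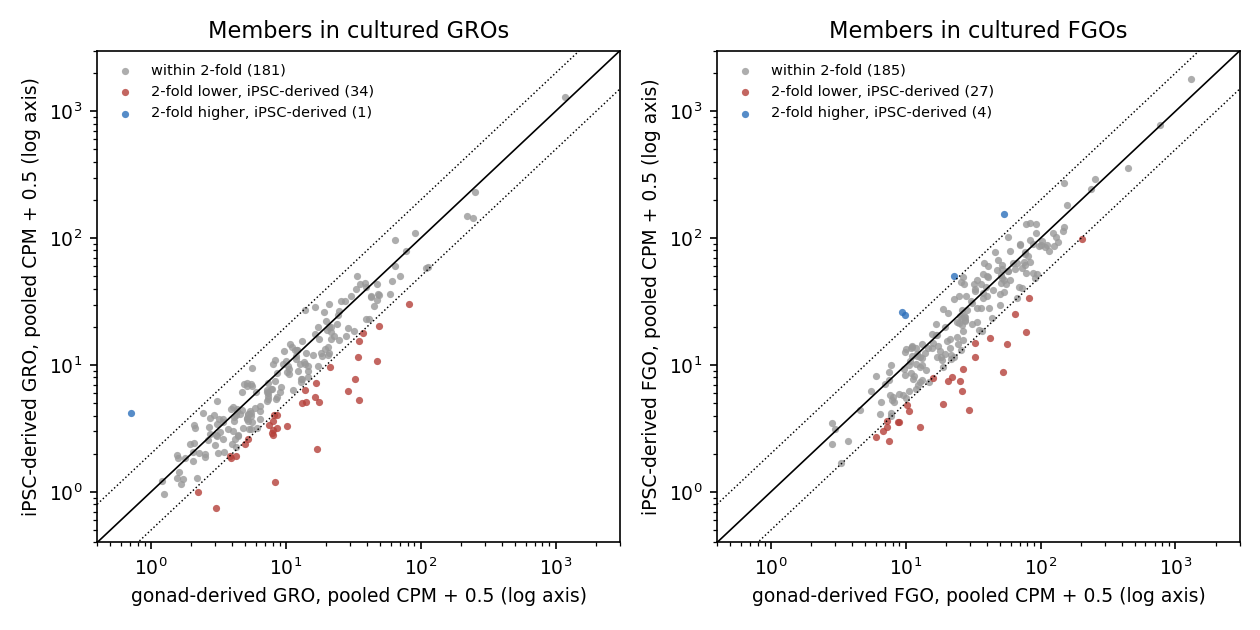
Pooled levels of the 216 members (points, CPM + 0.5 on log axes) in iPSC-derived against gonad-derived oocytes, in GROs and in FGOs, with members at least 2-fold apart in colour. In GROs 34 members are lower and 1 higher in iPSC-derived oocytes, and in FGOs 27 are lower and 4 higher.

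Nr2e1, the orphan nuclear receptor gene Tlx, had a median of 97.7 CPM in iPSC-derived FGOs (42.3 to 140), 211 in gonad-derived FGOs (35.2 to 281), 202 in 6 dpp FGOs (152 to 248) and 282 in in vivo FGOs (190 to 381). No iPSC-derived FGO reached the lowest 6 dpp or in vivo FGO, while gonad-derived FGOs overlapped with all groups. Ankrd33b, of the ankyrin repeat genes, was uneven among iPSC-derived FGOs, with a median of 1.62 CPM and a range of 0 to 42.6, against 55.9 CPM and 0.127 to 146 in gonad-derived FGOs.

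Gonad-derived and 6 dpp FGOs differed in few members. At least 2-fold lower in gonad-derived FGOs were 6 members, Tnfrsf21, Tuba3b, Cd200, Peli2, Tenm3 and Sh3bgrl, beside 0.95% of genes tested. At least 2-fold higher were 4, Sec14l3, Cldn15, Cxcr3 and Itgb4, beside 1.58%. Sh3bgrl was no longer 2-fold lower without 6 dpp FGO 3 (-0.62), and Sec14l3 no longer 2-fold higher without any 1 of 5 oocytes. The median log2 ratio was -0.04. Tnfrsf21, the death receptor 6 gene, had a median of 0.913 CPM in gonad-derived FGOs (0 to 11.8), 8.24 in 6 dpp FGOs (1.29 to 47.0) and 31.5 in in vivo FGOs (8.64 to 61.5). Cd200, a surface glycoprotein gene, had 5.91 CPM (0.431 to 21.6), 23.0 (5.42 to 43.0) and 45.0 (3.37 to 68.4). Cldn15, a tight-junction gene, was the reverse, with 55.2 CPM in gonad-derived FGOs (9.63 to 164) and 26.1 in 6 dpp FGOs (5.29 to 65.3), against 64.2 in in vivo FGOs (44.5 to 120). Groups overlapped for each of these genes.

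Members short in gonad-derived FGOs alone were Tenm3, Gm19583, Lcp2 and Prrg1, with 5.52, 8.94, 10.7 and 37.7 CPM against 15.0, 22.2, 24.5 and 77.4 CPM in in vivo FGOs. Prrg1 was complete without in vivo FGO 6, at a log2 ratio of -0.9987. Members short in 6 dpp FGOs alone were Nrcam, Cldn15, Gtf2ird1 and Cacng4, with 12.6, 30.4, 35.2 and 6.09 CPM against 36.6, 74.0, 77.8 and 13.6 CPM.

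Gene families were assigned from lists of symbol patterns, and 137 members fell into none of 12 families. The 12 genes left out by the rule, Cyp19a1 and Gja1 among them, are not counted as members of any family. The lists are not complete: the members Ehf, Glis1, Ikzf4, Arid3c, Tox3 and Prdm1 code for transcription factors, Gnrh1 and Edn1 for secreted ligands and Egfr for a receptor, and none matched a pattern, so the counts below hold for the matched genes alone. Over all 13148 genes tested in vivo, members made up 1.64%, and 1.95% were at least 4-fold lower in in vivo FGOs than in in vivo GROs. Over all families, 30.1% and 50.5% of members were early in iPSC-derived and gonad-derived GROs. Complete were 71.3%, 89.8% and 89.8% in iPSC-derived, gonad-derived and 6 dpp FGOs. Adhesion and junction genes held 11 members of 177 genes tested, of which 6 were early in iPSC-derived and 7 in gonad-derived GROs, and 8, 10 and 8 were complete in iPSC-derived, gonad-derived and 6 dpp FGOs. Cdh2, the N-cadherin gene, was among those early in both, but not without iPSC-derived GRO 24 (log2 ratio 0.997) and not without gonad-derived GRO 9 (0.989). It had 5.59, 5.55 and 2.40 CPM in iPSC-derived, gonad-derived and in vivo GROs and 15.4, 20.9, 22.2 and 19.6 CPM in iPSC-derived, gonad-derived and 6 dpp FGOs and in vivo FGOs. Other cell surface receptors held 9 members of 163, with 2 early in iPSC-derived and 6 in gonad-derived GROs and 4, 8 and 7 complete. The olfactory receptor gene Olfr288, of a multigene family, had 4.64 CPM in iPSC-derived, 17.2 in gonad-derived and 3.61 in in vivo GROs and 73.4 CPM in in vivo FGOs.

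The 5 ion channel members, of 95 genes tested, were Cacng4, Trpa1, Trpv2, Kcnn2 and Trpm6, and none was early. Kcnn2, a calcium-activated potassium channel gene, had 15.0, 12.7 and 13.1 CPM in iPSC-derived, gonad-derived and in vivo GROs and 66.3, 47.8, 56.5 and 56.3 CPM in iPSC-derived, gonad-derived and 6 dpp FGOs and in vivo FGOs. Trpm6, a magnesium channel gene, had 2.76 CPM in iPSC-derived FGOs and between 12.0 and 14.5 CPM in the 3 other groups of FGOs. The neurotransmitter receptor gene Htr5a, for a serotonin receptor, had 19.6, 16.9 and 6.07 CPM in iPSC-derived, gonad-derived and in vivo GROs and 86.3, 126, 126 and 139 CPM in the FGOs.

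The patterns for transcription factors and their partners matched 8 members of 544 genes tested, Lmo3, Tbx19, Etv1, Esrrg, Zfp708, Nr2e1, Zscan10 and Pou2f3, while 27 of the matched genes (4.96%) were at least 4-fold lower in in vivo FGOs than in in vivo GROs. Of the 8, 6 were complete in iPSC-derived and 7 each in gonad-derived and 6 dpp FGOs. Cytoskeleton and cilium genes held 9 members of 264. Of these, 4 failed in iPSC-derived, 2 in gonad-derived and 1 in 6 dpp FGOs, beside 13.0%, 3.24% and 3.24% of all members. Intracellular signalling genes held 9 of 331, immune genes 5 of 156 and genes with only a predicted or clone symbol 19 of 815, of which 12 were early in gonad-derived GROs. The matrix, ligand and lipid patterns matched 1 member each, Prss12, Fgf10 and Cyp4v3. Fgf10, a fibroblast growth factor gene, was near the floor in in vivo GROs at 0.253 CPM and had 11.2, 10.7, 12.9 and 14.2 CPM in iPSC-derived, gonad-derived and 6 dpp FGOs and in vivo FGOs.

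Members lay on many chromosomes, at GRCm38.p6 coordinates of RefSeq. The X chromosome held 16 of 475 genes tested (3.37%) and chromosome 18 held 12 of 373 (3.22%), while chromosome 7 had the lowest share (0.707%), beside 1.64% over all genes tested. Members within 200000 bases of each other formed 4 pairs, Selp and Gm16548, Egfr and Plek, Dmgdh and AW495222, and Tctex1d1 and BB031773. Egfr, the epidermal growth factor receptor gene, and Plek lie 57299 bases apart and differed in culture, with 130 and 2.20 CPM in iPSC-derived FGOs against 135 and 23.6 CPM in in vivo FGOs. The spans of 37 members overlap another gene, Lmo3, Lyn, Mrc1 and Ptpre among them, so their reads may be shared. The median exonic length of members was 3191 bases, against 2805 for genes tested.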

How the data were processed

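Single oocytes were sequenced by the Smart-seq2 protocol (full-length cDNA, no molecular identifiers). The authors aligned single-end reads to GRCm38 with STAR, placing reads with several positions at random, and then counted reads with a unique position in the exons of 1 randomly chosen transcript per gene (mm10), so near-identical copies may be undercounted. The deposited table holds raw counts of 21950 genes in 163 oocytes; use of strand is not stated. Exonic lengths are the authors' deposited column of widths. Counts were summed per group and given as pooled CPM with exact Poisson intervals, and class shares with exact (Clopper-Pearson) intervals. The pseudocount was 0.5 CPM. The classes used a 2-fold limit, and the midpoint is the mean of both in vivo levels on the log2 scale. Each group counted as 1 sample. The members, classes, gene families, marker lists and the naming rule (extremes of each class, members next to a threshold and the highest of each family) were chosen with earlier results of these data known. Other genes named were chosen after their values were seen. Symbols were absent for 43 identifiers. Scripts were tested on simulated data. Alternatives covered scaling (edgeR 4.0.16, DESeq2 1.42.0), pseudocount, thresholds, medians over oocytes and oocytes left out.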

Additional observations from a re-analysis of the deposited data

How the results depend on the processing

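The counts of strong risers and their classes depended mainly on the thresholds. With no minimum on in vivo FGO level there were 380 members, of which 39.7% were early in gonad-derived GROs, 7.11% failed in gonad-derived FGOs and 83.9% were complete in 6 dpp FGOs, while the median oocyte had 67.9% of members past the midpoint in iPSC-derived and 82.5% in 6 dpp FGOs. With a minimum of 30 CPM there were 104 members, of which 61.5% were early in gonad-derived GROs and 94.2% complete in gonad-derived FGOs, with 80.8% past the midpoint in iPSC-derived FGOs. With a log2 rise of at least 3 there were 74 members, of which 43.2% and 67.6% were early in iPSC-derived and gonad-derived GROs, 5.41% failed in iPSC-derived and 0% in 6 dpp FGOs, 47.3% and 44.6% were 4-fold higher within the iPSC-derived and gonad-derived source, and 82.4% were past the midpoint in iPSC-derived FGOs. With limits of 1.5-fold, 56.0% and 70.8% were early, 53.2%, 75% and 75.9% complete in iPSC-derived, gonad-derived and 6 dpp FGOs, and 8.33% and 0.926% failed in iPSC-derived and gonad-derived FGOs. With limits of 3-fold, 13.0% and 24.1% were early and 84.3%, 95.8% and 97.7% complete. A pseudocount of 2 CPM gave 1.18% failed in 6 dpp FGOs and 21.9% 4-fold higher within the iPSC-derived source. Without in vivo FGOs 5, 7, 19 and 22, 63.8% were complete in iPSC-derived FGOs, and the median shares of the rise were 76.2% in iPSC-derived and 87.4% in 6 dpp FGOs; the cause was not tested. At each of these settings fewer members were complete in iPSC-derived FGOs than in the other cultured FGOs, and more were early in gonad-derived than in iPSC-derived GROs.

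Scaling by TMM or by the size factors of DESeq2, a pseudocount of 0.1 CPM, medians over oocytes in place of pooled levels, leaving out the oocytes rich in somatic markers and leaving out any single oocyte moved none of these summary values beyond their interval or spread. Leaving out single oocytes gave 211 to 228 members, with 69.2 to 72.2% complete in iPSC-derived FGOs. Of the values of named genes under all settings, 597 stayed and 6 moved, and none changed sign while past 2-fold. In a check added after the data were seen, the class of each member was recomputed without each oocyte in turn. At least 1 oocyte ended the call for 7 of 154, 5 of 194 and 2 of 194 complete members in iPSC-derived, gonad-derived and 6 dpp FGOs, for 6 of 34, 5 of 15 and 1 of 15 partial members, and for 3 of 28, 2 of 7 and 1 of 7 failed members. Between iPSC-derived and gonad-derived oocytes it ended the call of 7 of 34 lower members in GROs and 3 of 27 in FGOs. No paired analysis was possible because no test was made and replicate numbers only name single oocytes.

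With 1 sample per group, no difference has a replicate check. Members near 1 CPM in GROs rest on few reads per oocyte, so that their spread over oocytes includes counting error.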
